A study of Homo sapiens with 8 samples.

Results

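Purine salvage genes were followed by RNA sequencing in a human pancreatic cancer line, Panc10.05, and in cells grown from it that had become resistant to indisulam. The set held 10 genes, taken by symbol from the 60675 genes of the count tables: GDA, XDH, HPRT1, PNP, ADA, APRT, IMPDH1, IMPDH2, NT5E and ADK. The set was chosen by measured values, because GDA had been among the large falls in resistant cells. The GDA differences between the lines, and the difference of its drug responses, which is made of the same values, are therefore given as descriptions without a test, and the other 9 members were tested in every comparison. All 10 members were among the 16661 genes that passed the low-count filter.

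Indisulam is an aryl sulfonamide that recruits RBM39, an RNA-binding splicing factor, to a ubiquitin ligase containing DCAF15, which leads to loss of RBM39 protein. The 8 libraries formed 4 groups of 2, with each line, Parental and Resistant, sequenced untreated and with indisulam. The parental drug group had 2 µM for 18 h. The resistant line was raised by culture in increasing drug, its Resistant indisulam group stayed on the same dose of 2 µM without a break, and its Resistant untreated group had come off it for a week-long holiday, so the indisulam effect in the resistant line is a contrast of continued exposure with withdrawal. Whether the line is a clone is not given in the sources used here. All groups derive from Panc10.05 by their titles and cell line field, although the growth and treatment notes name A549. The libraries of a group are technical replicates in the study's words, and all p-values below measure the spread between libraries only. The libraries held 65266253 to 108002436 reads assigned to genes. All 7 epithelial and ductal markers examined were above 1 CPM in every library, with a summed level of 6330 to 12200 CPM, and the endocrine markers INS, GCG and CHGA were at 0. The summed acinar, leukocyte and endothelial markers reached at most 0.341 CPM, and fibroblast markers 4.03 CPM.

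Cells obtain purine nucleotides either by de novo synthesis or by salvage of free bases and nucleosides. In salvage, PNP splits inosine and guanosine into bases, HPRT1 returns hypoxanthine and guanine to the nucleotide pool, and APRT does the same for adenine. GDA removes guanine from this route by deaminating it to xanthine, and XDH oxidises hypoxanthine and xanthine to urate. Adenosine is formed outside the cell from AMP by NT5E, also called CD73, and is phosphorylated by ADK or deaminated by ADA. IMPDH1 and IMPDH2 catalyse the rate-limiting step from IMP towards guanine nucleotides.

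Upstream sequences are shown for GDA, whose fall defined the set, and for XDH and IMPDH1, the members with the greatest tested rises in untreated resistant cells. They are the RefSeq bases before the start site (GRCh38.p14), read 5′ to 3′ and stopped where a GENCODE exon begins. Capitals mark CCAAT or GGGCGG on either strand. The GDA stretch is chr9:72149190-72149350 on the plus strand, XDH is chr2:31414743-31414992 on the minus strand, and IMPDH1 is chr7:128409987-128410232 on the minus strand. The GDA stretch lies inside the GENCODE gene, which begins at 72114595, between exons of the longer gene model. Those of XDH and IMPDH1 lie before their GENCODE genes.
GDA: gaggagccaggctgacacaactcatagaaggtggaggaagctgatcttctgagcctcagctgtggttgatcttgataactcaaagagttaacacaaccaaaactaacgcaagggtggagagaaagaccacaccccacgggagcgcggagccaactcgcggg
XDH: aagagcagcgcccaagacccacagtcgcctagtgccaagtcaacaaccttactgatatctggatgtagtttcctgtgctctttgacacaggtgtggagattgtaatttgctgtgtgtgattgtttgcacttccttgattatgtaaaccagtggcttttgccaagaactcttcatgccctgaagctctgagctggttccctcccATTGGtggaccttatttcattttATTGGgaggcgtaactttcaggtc
IMPDH1: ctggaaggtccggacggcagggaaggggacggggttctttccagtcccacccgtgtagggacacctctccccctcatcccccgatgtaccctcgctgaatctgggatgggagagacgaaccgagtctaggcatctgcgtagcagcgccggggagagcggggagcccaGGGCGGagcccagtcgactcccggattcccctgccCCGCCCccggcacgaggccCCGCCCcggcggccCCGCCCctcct

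The full window of 250 bases was searched on both strands for the TATA box TATAAA, the CCAAT box, the GC box GGGCGG and the E-box CACGTG, which occur in 10.7%, 32.0%, 42.6% and 6.34% of the 35116 RefSeq promoters. XDH held CCAAT at 2 places and no GGGCGG, and 46.4% of its bases were G or C. IMPDH1 held GGGCGG at 4 places and no CCAAT, at 71.6% G and C. The GDA window, at 58.0% G and C, held CCAAT once and GGGCGG once. Both lie in the 89 bases that are not printed because a GENCODE exon begins there. The TATA box and the E-box were in none of these 3 windows. The windows of ADA and NT5E are overlapped by exons of longer GENCODE transcripts and are not shown. These matches describe letters and say nothing about binding.

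GDA, encoded on the plus strand of chromosome 9 (72114595 to 72257193, GRCh38), was high in parental cells and low in resistant cells. Its level in CPM (counts scaled to the size of each library, with TMM factors) was 51.2 and 50.9 in untreated and 71.7 and 74.2 in treated parental cells. In resistant cells it was 11.2 and 11.3 untreated and 12.8 and 12.9 on the drug. The 4 groups did not overlap, and their order was Parental indisulam, Parental untreated, Resistant indisulam and Resistant untreated. As a description, the resistant line held 0.22 times the parental level without the drug (log2 fold change -2.19, SE 0.0408, n = 2 per group) and 0.176 times with it (-2.51, SE 0.0387). Ordered from the greatest fall, GDA stood 76th without the drug and 18th with it among the 16661 genes.

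The drug responses of GDA were not the stated ground of the choice, but they are made of the same libraries as its line differences. Their p-values do not allow for that choice. GDA rose 1.43-fold in parental cells given indisulam (log2 fold change 0.52, SE 0.0322, adjusted p = 6.2e-12, edgeR quasi-likelihood test with Benjamini-Hochberg adjustment). It rose 1.15-fold in resistant cells on the drug (0.20, SE 0.0488, adjusted p = 0.0018). The difference of the responses, resistant minus parental, was -0.32 log2 units (SE 0.0586, a description), and resistant cells on the drug remained below untreated parental cells in all libraries.

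XDH, the molybdenum-containing oxidase at the end of purine breakdown, went from a trace in parental cells to a clear signal in resistant cells. The parental libraries held 27 and 18 reads untreated and 16 and 24 with indisulam, against 530 and 412 untreated and 307 and 392 on the drug in the resistant line. In CPM this was 0.247 and 0.168, then 0.213 and 0.31, then 7.16 and 6.34, and 4.55 and 4.08. The lines did not overlap, whereas the parental groups overlapped each other. XDH was 32.3-fold higher in resistant cells without the drug (log2 fold change 5.01, SE 0.159, 95% interval 4.68 to 5.34, adjusted p = 2.4e-18) and 16.3-fold higher with it (4.02, SE 0.176, adjusted p = 1.2e-15). It fell in the resistant line on the drug (-0.65, SE 0.101, adjusted p = 8.7e-06). In parental cells its value was 0.33 with an interval of -0.31 to 0.97, too wide at these counts to show a response. The responses differed by -0.99 (adjusted p = 0.015), and the call was lost when Parental untreated replicate 2 (-0.75, adjusted p = 0.11) or Parental indisulam replicate 2 (-0.67, adjusted p = 0.21) was left out.

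**Figure D1:**
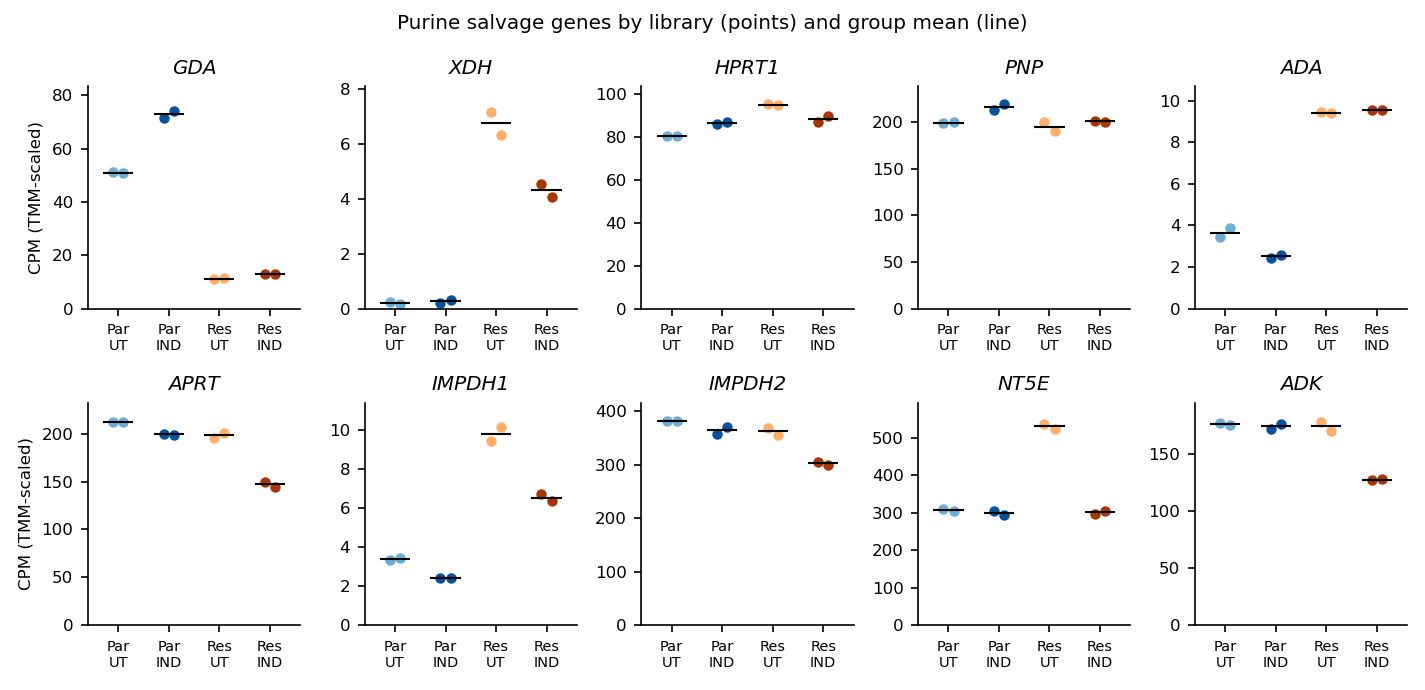
TMM-scaled CPM (vertical axis, from 0, with its own scale for each gene) of the 10 purine salvage genes in the 8 libraries. Points are libraries, horizontal lines are group means, Par and Res are the parental and resistant lines, and UT and IND are untreated and indisulam. GDA lies at 50.9 to 74.2 CPM in parental and 11.2 to 12.9 in resistant libraries. XDH is instead higher in the resistant than in the parental line, and NT5E is raised in Resistant untreated alone.

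The enzymes that return bases to nucleotides, HPRT1 and APRT, differed by 1.18-fold or less between the untreated lines. HPRT1, a hypoxanthine and guanine phosphoribosyltransferase, had 80.5 and 80.6 CPM in untreated and 86 and 87 in treated parental libraries, against 95.3 and 94.7 in untreated and 86.9 and 89.9 in treated resistant libraries. It was highest in Resistant untreated, and the drug groups of the lines overlapped. HPRT1 was higher in untreated resistant cells (log2 fold change 0.24, adjusted p = 2.2e-07), rose in parental cells on the drug (0.10, adjusted p = 0.0049) and fell in resistant cells on it (-0.10, adjusted p = 0.0062). Both drug responses were lost with scaling by library totals alone (adjusted p = 0.31 and 0.13).

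APRT, the adenine phosphoribosyltransferase, measured 212 and 212 CPM untreated and 200 and 199 with the drug in parental cells, and 196 and 201 untreated and 150 and 144 with the drug in resistant cells. Resistant indisulam was thus set apart from the other groups. APRT fell in the resistant line on the drug (-0.43, SE 0.0294, adjusted p = 1.9e-11), against -0.09 in the parental line (adjusted p = 0.011), and the responses differed by -0.34 (adjusted p = 3.8e-07). The small parental fall lost its call when either Parental untreated library was left out (adjusted p = 0.069 and 0.077).

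PNP, which yields the bases that HPRT1 and GDA use, was the most even member. It lay between 191 and 220 CPM in all 8 libraries. PNP rose in parental cells on the drug (0.12, adjusted p = 0.0011) and was lower in resistant than in parental cells on the drug (-0.10, adjusted p = 0.003). Both calls were lost with scaling by library totals alone (adjusted p = 0.1 and 0.63) and without Parental indisulam replicate 2 (adjusted p = 0.087 and 0.19).

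The adenosine genes did not move together. NT5E, the surface enzyme that releases adenosine from AMP, had 309 and 305 CPM in parental cells without and 304 and 295 with the drug. In resistant cells it had 538 and 523 without and 297 and 304 with the drug. The untreated resistant libraries stood above all others, which lay between 295 and 309 CPM. NT5E was 1.73-fold higher in the resistant line without the drug (log2 fold change 0.79, SE 0.0282, adjusted p = 2.4e-17). With the drug the difference was 0.00 (95% interval -0.06 to 0.06, adjusted p = 0.93), and scaling by library totals alone gave 0.09 (adjusted p = 0.0068). NT5E fell to 0.566 times in resistant cells on the drug (-0.82, SE 0.0284, adjusted p = 7.3e-17), against -0.03 in parental cells (adjusted p = 0.31), and the responses differed by -0.79 (SE 0.04, adjusted p = 4.8e-13).

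ADA, the adenosine deaminase, had 3.44 and 3.86 CPM in untreated and 2.45 and 2.56 in treated parental libraries, against 9.44 and 9.39 in untreated and 9.54 and 9.56 in treated resistant libraries. No groups overlapped, and the resistant line was higher throughout. ADA was 2.58-fold higher in resistant cells without the drug (log2 fold change 1.37, SE 0.0725, adjusted p = 5e-14) and 3.81-fold higher with it (1.93, SE 0.0809, adjusted p = 5.1e-16). It fell in parental cells on the drug (-0.54, SE 0.0898, adjusted p = 1.7e-05), was at 0.02 in the resistant line (95% interval -0.12 to 0.16), and was the member whose responses differed in the positive direction (0.56, adjusted p = 0.00021). Its exons overlap those of PKIG on the opposite strand, and since the strand setting of the counting is not given in the sources used here, reads of this pair are uncertain. PKIG held 15.12% of the reads of the pair.

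ADK, the adenosine kinase, was level in 3 groups and lower in the last. It measured 177 and 175 CPM untreated and 172 and 176 with the drug in parental cells, and 178 and 170 untreated and 127 and 128 with the drug in resistant cells. The first 3 groups overlapped. ADK fell in the resistant line on the drug (-0.45, SE 0.0299, adjusted p = 1.3e-11) against -0.02 in the parental line (adjusted p = 0.59), and the responses differed by -0.43 (adjusted p = 2e-08).

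The IMP dehydrogenases differed in scale and direction. IMPDH1 had 3.34 and 3.47 CPM in untreated and 2.41 and 2.43 in treated parental libraries, against 9.44 and 10.2 in untreated and 6.73 and 6.36 in treated resistant libraries. The groups did not overlap, and within each line the drug group was the lower. IMPDH1 was 2.88-fold higher in the resistant line without the drug (log2 fold change 1.53, SE 0.0747, adjusted p = 1e-14) and 2.7-fold higher with it (1.43, SE 0.0873, adjusted p = 5.8e-13). It fell on indisulam in parental cells (-0.49, SE 0.0927, adjusted p = 8e-05) and in resistant cells (-0.59, SE 0.0711, adjusted p = 2.6e-07). The difference of these responses was -0.10 with an interval of -0.34 to 0.15.

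IMPDH2, the abundant isozyme, measured 381 and 381 CPM untreated and 357 and 371 with the drug in parental cells, and 369 and 355 untreated and 305 and 299 with the drug in resistant cells. The middle groups overlapped and Resistant indisulam was lowest. IMPDH2 fell in the resistant line on the drug (-0.26, SE 0.029, adjusted p = 6.2e-08), and its response differed from the parental one by -0.20 (adjusted p = 0.00033). This difference was lost with scaling by library totals alone (adjusted p = 0.081). The parental fall of -0.07 (adjusted p = 0.049) was lost with a replicate block (adjusted p = 0.065), and the line difference of -0.07 without the drug (adjusted p = 0.029) was lost with DESeq2 size factors (adjusted p = 0.09).

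Per kilobase of merged exon, the scale on which genes can be set side by side, the order in Parental untreated was APRT at 118 CPM per kilobase, IMPDH2 at 74.5, NT5E at 67.7, HPRT1 at 50, ADK at 37.8, PNP at 34.1, GDA at 6.46, IMPDH1 at 1, ADA at 0.3 and XDH at 0.0342 (means, n = 2). In this group each step of the order exceeded the spread of the libraries. In Resistant untreated GDA stood at 1.42, XDH at 1.11, IMPDH1 at 2.9 and ADA at 0.773, so that IMPDH1 lay above GDA there. The length used changed this order. Per kilobase of canonical transcript, Parental untreated had IMPDH2 at 231, APRT at 228, PNP at 135, ADK at 88.5, NT5E at 86.1, HPRT1 at 57.7, GDA at 9.51, ADA at 2.44, IMPDH1 at 1.31 and XDH at 0.0363. In Resistant untreated ADA, at 6.29, then lay above IMPDH1 at 3.77, GDA at 2.09 and XDH at 1.18.

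Counted over the set, 3 of 10 members, GDA among them, rose and 4 fell in parental cells on indisulam. Of all tested genes 31.6% rose and 26.6% fell there. In the resistant line 1 (GDA) rose and 7 fell, against 24.9% and 25.8% of all genes. The median log2 fold change of the members was -0.03 in the parental and -0.35 in the resistant line, and that of all genes was 0.01 in both. Between untreated lines, 5 of the 9 tested members were higher and 2 lower in resistant cells, against 30.3% and 29.9% of all genes. On the drug 3 were higher and 4 lower, against 34.6% and 34.9%. For the difference of the responses, 1 of the 9 members other than GDA was higher and 6 were lower, against 22.7% and 27.5%. These comparisons share groups of libraries and are not independent of each other. When a change had to exceed 0.5 log2 units in either direction (edgeR's glmTreat), 0 of the 10 members were called in the parental response and 1 in the resistant response. In the difference of the responses 1 of the 9 members other than GDA was called. Both calls were of NT5E. The shares of all genes were 6.25%, 5.28% and 5.45%. Between the untreated lines 4 of 9 passed, XDH, ADA, IMPDH1 and NT5E, against 15.5% of all genes, and on the drug 3 of 9, XDH, ADA and IMPDH1, against 21.1%.

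**Figure D2:**
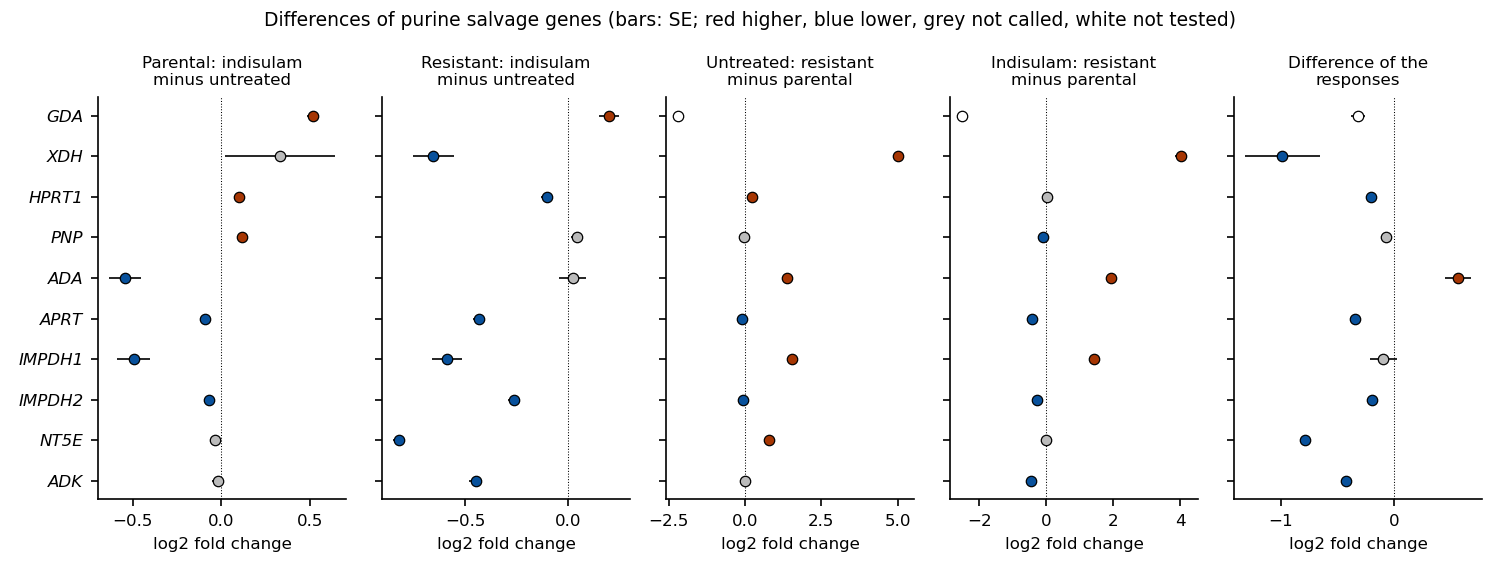
Log2 fold change (horizontal axis, with its own scale in each panel) of the 10 members in the 5 comparisons, with bars for the standard error. Red points were called higher, blue lower and grey not called, and the white GDA points, between the lines and for the difference of the responses, were not tested. In the resistant drug response 7 members lie left of zero and are called, down to NT5E at -0.82, while XDH, IMPDH1 and ADA lie far to the right between the lines.

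The wider purine pathway was covered by 70 further genes in 7 lists, of which 52 passed the filter. Of these, 16 rose and 16 fell in the parental response, 11 rose and 26 fell in the resistant response, and 12 were higher and 27 lower in the difference of the responses. Between the lines 26 were higher and 13 lower without the drug, and 18 and 22 with it. Both counts of higher genes include SLC29A4, which passed the filter through its resistant libraries. Its mean level was 0.0231 CPM in untreated and 0.00667 in treated parental cells, against 0.195 and 0.193 in resistant cells. The background shares are those given for the members.

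De novo synthesis builds the purine ring on PRPP. In the resistant line on the drug 7 of its 10 genes fell, 1 (ADSL) rose, 2 (PRPSAP1 and PRPSAP2) were not called, and the median log2 fold change was -0.24. Of all tested genes 25.8% fell and 24.9% rose there. In the parental response this list gave 3 rises, 4 falls and a median of -0.03, against 31.6% and 26.6% of all genes. GART, a trifunctional enzyme of the pathway, had 188 and 184 CPM in untreated and 166 and 171 in treated parental libraries, against 218 and 214 in untreated and 158 and 158 in treated resistant libraries. It showed the greatest fall of the list in the resistant response (-0.46, SE 0.0281, adjusted p = 3.8e-12). PPAT, the amidotransferase that commits PRPP to the pathway, had 109 and 111, 117 and 120, 88.2 and 86.3, and 68.9 and 69.8 CPM in the same order of groups. PPAT was lower in the resistant line with the drug (-0.78, SE 0.0302, adjusted p = 1.2e-16) and without it (-0.33, adjusted p = 8.8e-10). ADSL, adenylosuccinate lyase, moved the other way, falling in the parental response (-0.45, adjusted p = 1.4e-06) and rising in the resistant one (0.17, adjusted p = 0.023). Its exons overlap those of another protein-coding gene on the same strand, and how reads of shared exons were assigned is not given. ADSL held 6177 reads over all libraries and the other gene 34, so the ADSL values are uncertain.

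Among the interconversion genes, 10 of 15 tested were higher and 4 lower in untreated resistant cells, against 30.3% and 29.9% of all genes. AK3, a mitochondrial GTP:AMP phosphotransferase, showed the greatest fall (-0.61, SE 0.0307, adjusted p = 1.9e-14), and fell on the drug in parental (-0.32, adjusted p = 4.6e-09) and resistant cells (-0.43, adjusted p = 1.1e-10). ADSS1, the muscle-type adenylosuccinate synthase, rose most (1.17, adjusted p = 7e-05) on 28 to 96 reads per library. DGUOK, deoxyguanosine kinase, rose in the parental response (0.38, adjusted p = 2.6e-09), and its responses differed by -0.56 (adjusted p = 5.6e-09).

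In the nucleotidase list 2 of 10 tested genes rose and 5 fell in the resistant response, against 24.9% and 25.8% of all genes. NT5C2, a cytosolic nucleotidase for IMP and GMP, was lower in the resistant line on the drug (-0.73, SE 0.0301, adjusted p = 3.5e-16). The leading changes of NT5M and ENTPD8 rested on 9 to 42 and 6 to 63 reads per library, and ENTPD8 also lies across from NOXA1, which held 93.829% of the reads of that pair.

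Of 5 tested nucleoside and nucleobase transporters, SLC28A3, a concentrative nucleoside carrier, rose on the drug in both lines, by 1.05 log2 units in the parental (adjusted p = 2e-08) and 1.01 in the resistant line (adjusted p = 5.9e-07). Its level went from 1.98 and 1.74 CPM to 3.87 and 3.85 with the drug in parental cells, and from 1.5 and 1.22 to 2.73 and 2.78 in resistant cells. The drug groups lay above the untreated groups in both lines. SLC29A1, the equilibrative transporter ENT1, fell on the drug in parental (-0.19, adjusted p = 7e-06) and resistant cells (-0.48, adjusted p = 3.4e-12), and the responses differed by -0.29 (adjusted p = 5.5e-06). SLC29A2 also fell in both, by -0.61 (adjusted p = 2.9e-10) and -0.24 (adjusted p = 0.00033), and differed the other way (0.37, adjusted p = 0.00012). SLC29A4 was counted at 0 to 20 reads per library, and no fold is given.

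AOX1, aldehyde oxidase, shares the molybdenum cofactor with XDH and also oxidises purines. It measured 3.73 and 3.4 CPM untreated and 3.27 and 3.71 with the drug in parental cells, and 3.48 and 3.3 untreated and 7.98 and 8.85 with the drug in resistant cells. The first 3 groups overlapped and Resistant indisulam lay above them. AOX1 rose 2.49-fold in the resistant line on the drug (1.32, SE 0.0883, adjusted p = 1.5e-11) against -0.03 in the parental line (adjusted p = 0.8), and the responses differed by 1.35 (SE 0.129, adjusted p = 1.7e-08). XDH therefore fell and AOX1 rose in the same libraries. MOCOS, which sulphurates the cofactor of both enzymes, fell on the drug in parental (-0.65, adjusted p = 3e-12) and resistant cells (-0.47, adjusted p = 3e-10) and was higher in untreated resistant cells (0.33, adjusted p = 3.5e-08). MOCS1, needed for the first step of cofactor synthesis, was listed at 0 reads in all 8 libraries. Its exons overlap those of DAAM2-AS1 on the same strand and DAAM2 on the opposite strand. These held 0 and 1 reads, and how reads of shared exons were assigned is not given.

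Of the 5 tested genes of adenosine and methylthioadenosine handling, 5 were lower in the resistant line on the drug, with a median of -0.29. Of all genes 34.9% were called lower in that comparison, and 5 genes are few. MTAP, which salvages adenine from methylthioadenosine, was the lowest (-0.61, SE 0.03, adjusted p = 9.2e-15). ADORA2B, an adenosine receptor, rose in the parental response (0.38, adjusted p = 1.8e-09), and its responses differed by -0.44 (adjusted p = 1.1e-07). Of 5 urate transporters SLC2A9 alone passed the filter, at 17 to 53 reads per library, and was higher in the resistant line without (0.76, adjusted p = 0.03) and with the drug (1.37, adjusted p = 0.00018).

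**Figure D3:**
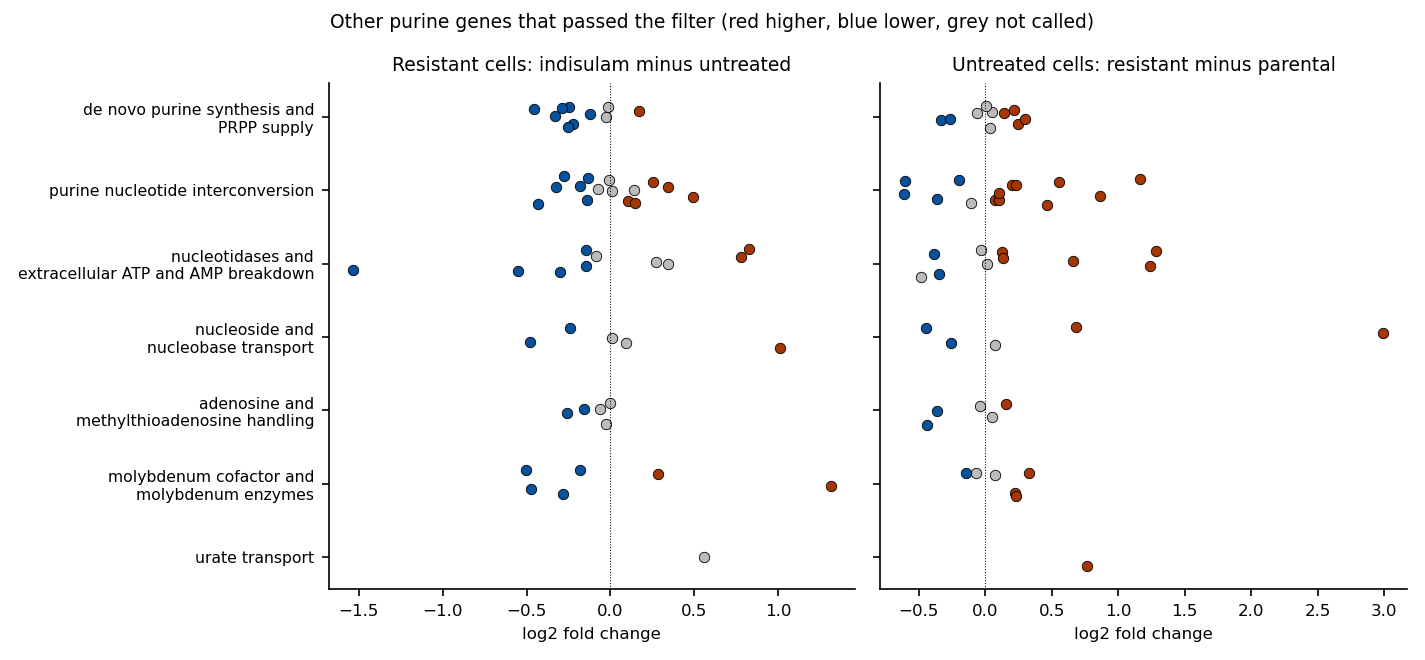
Log2 fold change (horizontal axis) of the 52 further purine genes that passed the filter, 1 point per gene, by list, for the resistant drug response and for the untreated lines. Red points were called higher, blue lower and grey not called, and vertical scatter within a list only separates points. The de novo genes lie mostly left of zero in the drug response, with 7 of 10 called lower against 25.8% of all genes. AOX1 (1.32) is the rightmost point of the cofactor list. The far right point between the lines is SLC29A4, which has 0 to 20 reads per library.

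The genes whose pattern over the 8 libraries was most like that of GDA were sought among 8878 genes by the root mean square distance of centred log2 CPM. They were DKK1 (0.394), TBC1D2 (0.466), CNTRL (0.501), CKS2 (0.515) and TRMO (0.519). DKK1, a secreted Wnt antagonist on chromosome 10, had mean levels of 64.9 CPM untreated and 59.8 treated in parental cells, and 19.5 and 17.7 in resistant cells. Unlike GDA it did not lie higher with the drug. CKS2, a small cyclin-dependent kinase subunit, had 152, 233, 66.6 and 84.6 CPM in the same order of groups, and so shared with GDA the higher drug groups. CNTRL and TRMO also had higher means with the drug in both lines, and TBC1D2, like DKK1, had lower ones. TBC1D2, CNTRL, CKS2 and TRMO lie on chromosome 9 as GDA does, at 26.1, 49, 17.2 and 25.8 Mb from its start. Chromosome 9 held 500 of the 12020 genes with a mean of at least 1 CPM on the 23 chromosomes compared. Its share of the 8878 genes searched was not counted. All 5 genes were lower in the resistant line, the difference for which GDA was chosen, so the likeness is a description without a test.

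The positions of the members were therefore examined, a step added after these values were seen. Among 500 genes of chromosome 9 with a mean of at least 1 CPM, the median log2 fold change of resistant against parental cells was -0.42 without the drug and -0.46 with it, and 407 of them (81.4%) were called lower without it. On the other chromosomes the medians ran from -0.24 to 0.21 without the drug and from -0.28 to 0.13 with it, and 31.9% of genes were called lower. GDA was the 3rd lowest of the 500 genes. Its 19 neighbours within 5 Mb had a median of -0.33 and ranged from -1.14 to 1.40, and the GDA value of -2.19 was below all of them. GDA was chosen for its fall between the lines, so its low place among these genes is only a description. Of the 6 other purine genes tested on this chromosome, AK3 at -0.61 stood beside a neighbour median of -0.50, MTAP at -0.36 beside -0.44, SLC28A3 at -0.45 beside -0.42 and AK1, a cytosolic adenylate kinase, at -0.60 beside -0.28. ENTPD2 at 0.66 and ENTPD8 at 1.28 were higher, beside -0.32 for both. Elsewhere IMPDH1 rose by 1.53 where its 47 neighbours on chromosome 7 had a median of -0.28, ADA by 1.37 beside 0.24 on chromosome 20 and XDH by 5.01 beside 0.10 on chromosome 2. ADK was at -0.02 beside a median of -0.33 on chromosome 10. DNA was not analysed here, and what part position has in the GDA value was not tested.

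**Figure D4:**
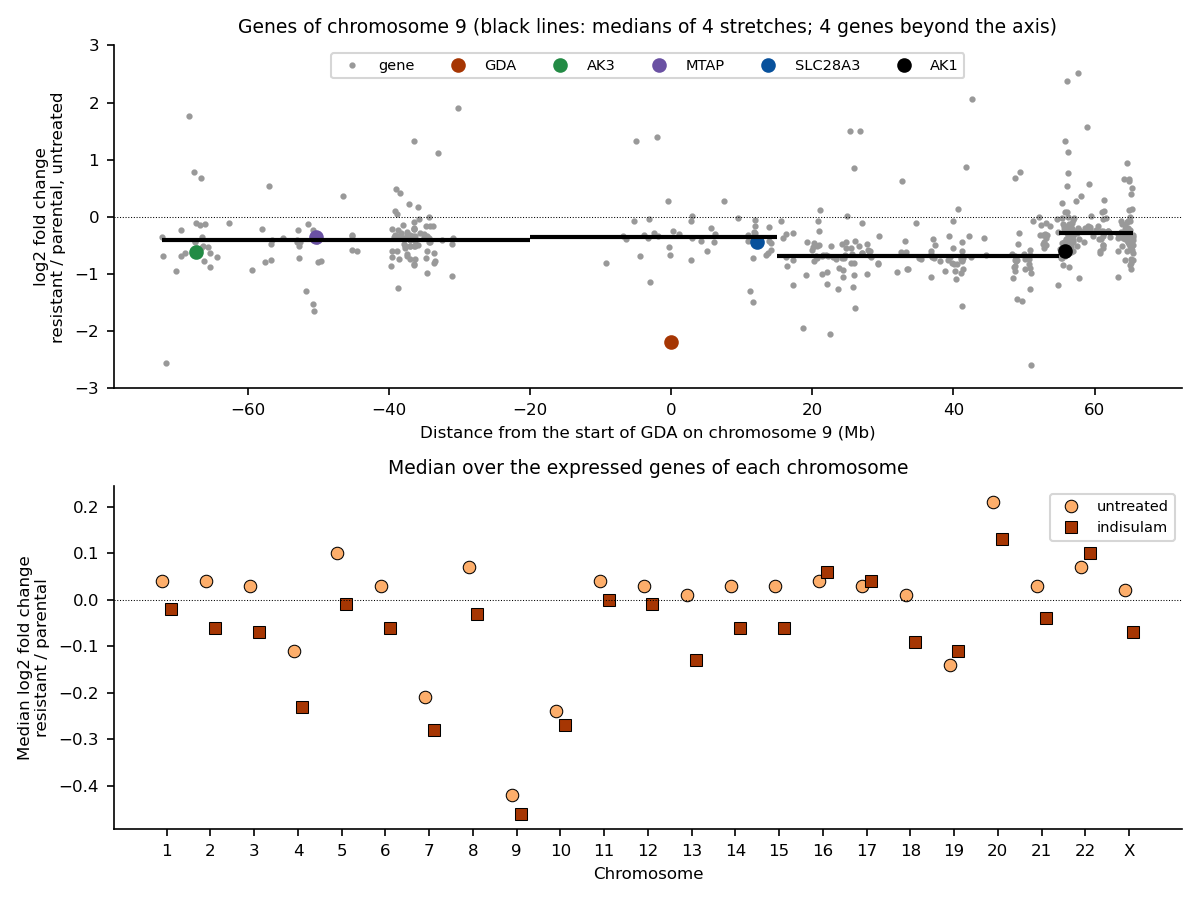
The upper panel plots the log2 fold change of untreated resistant against parental cells (vertical axis, 4 genes lie beyond it) for 500 genes against distance from the start of GDA in Mb. Black lines are medians of 4 stretches of chromosome 9, and coloured points are purine genes. The lower panel gives the median over the expressed genes of each chromosome without and with indisulam. Chromosome 9 is the lowest in both conditions, at -0.42 and -0.46. GDA, which was chosen for its fall, lies at -2.19, below its neighbours.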

How the data were processed

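For each of the 8 libraries the authors deposited raw counts of reads by gene, made from stranded libraries of polyadenylated RNA. The submitters' processing notes name HISAT2 2.2.1, Picard, HTSeq and GRCh38. The strand setting and annotation release are not given in the sources used here. Lines for unassigned reads, 37.88% to 44.94% of each table (duplicates 14.07% to 18.43%), were left out of library sizes and tests. Reads carry no molecular identifiers, and depth covers counting error only. There were 65266253 to 108002436 reads in genes per library, and standard errors were widest for members with few reads, such as XDH in parental cells. GENCODE 44 matched 60419 of 60675 identifiers, and 9 of the 10 members (not IMPDH2) matched the RefSeq promoter table.

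Counts were tested in edgeR 4.0.16 (R 4.3.3) with filterByExpr, TMM scaling and a robust quasi-likelihood fit of 4 group means to all 8 libraries, which left 4 residual degrees of freedom. P-values were adjusted by Benjamini-Hochberg over 16661 genes and called below 0.05. Standard errors are the log2 fold change divided by the square root of F. The steps were tested on simulated data. Libraries of a group correlated at 0.9964 to 0.998, and their counts differed by more than sampling noise (mean chi-square per gene 2.07 to 6.33). Transcripts of the members were searched for near-identical copies (BLAST 2.17.0, at least 95% identity over 100 bases). Matches were found for PNP (an antisense RNA) and IMPDH2 (a readthrough gene with no counts here) alone, and both overlap the member's own position in GENCODE. Genes named outside the 10 members were, in each list and comparison, the called genes with the greatest rise or fall, a few others needed for a group, and the 5 nearest to GDA. The members, lists and rules were chosen with earlier results of these data known. Alternatives were DESeq2 (1.42.0) and its size factors, library totals, other filters, fewer groups, a replicate block, glmTreat and leaving out each library. No protein sequences were used.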

Additional observations from a re-analysis of the deposited data

Results flagged for a closer look

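The indisulam response differed between the lines for 7 members other than GDA, by the test of the difference itself. The difference is the resistant minus the parental response in log2 units (edgeR quasi-likelihood test, all 4 groups). Of all tested genes 50.1% were called in this comparison in either direction, so such a call was common. The values were -0.99 for XDH, -0.21 for HPRT1, 0.56 for ADA, -0.34 for APRT, -0.20 for IMPDH2, -0.79 for NT5E and -0.43 for ADK. GDA had -0.32, listed with them as a description, since it is made of the line differences for which GDA was chosen. The adjusted p was 4.8e-13 for NT5E and 0.015 for XDH, the ends of the range. When the difference had to exceed 0.5 log2 units (glmTreat), NT5E alone was called, against 5.45% of all genes. The differences of XDH, NT5E, APRT, IMPDH2 and ADK came with a fall in resistant cells on the drug, and XDH was at 16 to 27 reads per library in parental cells. That of ADA came with a fall in parental cells alone, and HPRT1 rose in 1 line and fell in the other. For NT5E the group set apart was Resistant untreated, off the drug for a week, at a mean of 530 CPM. Its mean was 300 in Resistant indisulam, and 307 and 300 in untreated and treated parental cells. The parental cells had the drug for 18 h, and the resistant cells had it continuously or were withdrawn from it. Line, length of exposure and withdrawal therefore cannot be told apart.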

How the results depend on the processing

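The number of members called stayed within 1.5 times the main count under every alternative other than glmTreat against 0.5 log2 units. The main counts were 7 and 8 in the parental and resistant responses. They were 7 and 7 between the lines without and with the drug, and 8 in the difference of the responses. With glmTreat they were 0, 1, 4, 3 and 1 in the same order. The main count of 8 in the difference includes GDA, whose difference is otherwise given as a description. The other purine genes called fell under glmTreat from 32 to 2, 37 to 3, 39 to 7, 40 to 14 and 39 to 1 in the same order, and stayed within 1.5 times otherwise. Values that changed sign were all near 0 and not called. Over the libraries left out in turn, PNP between untreated lines ran from -0.059 to 0.015, ADK from -0.053 to 0.028, and NT5E between the lines on the drug from -0.010 to 0.046. In the difference of the responses PNP became 0.039 with library totals alone and 0.008 with a filter on mean CPM at 1, and IMPDH1 became 0.019 with library totals. The cause was not tested. Library totals moved the median of all genes in that difference from 0.01 to 0.125, no filter moved it to 0.154, and the share of calls that were higher went from 45.2% to 65.8% with totals. It went from 54.3% to 42% in the parental response, from 49.1% to 59.7% in the resistant response and from 49.8% to 59.7% between the lines on the drug. With library totals, calls were lost for HPRT1 (both responses and their difference), PNP (parental response, and lines on the drug) and IMPDH2 (difference), and gained for NT5E and ADK (parental response), PNP (resistant response), and HPRT1 and NT5E (lines on the drug). A filter on mean CPM at 1 made the same gains and lost HPRT1 (adjusted p = 0.16) and PNP (0.058) in the parental response and PNP between the lines on the drug (0.44), and no filter lost HPRT1 in the parental response (0.094). Besides the cases given with the results, leaving out 1 library ended the call of HPRT1 in the parental response (adjusted p = 0.05 and 0.13 without Parental indisulam replicate 1 or 2) and in the resistant response (0.059 without Resistant indisulam replicate 1), and of APRT between untreated lines (0.052 without Parental untreated replicate 2, 0.064 without Resistant untreated replicate 1). It also ended the call of IMPDH2 in the parental response (0.18 without either Parental untreated library or Parental indisulam replicate 1) and between untreated lines (0.13 without either Parental untreated library, 0.37 without Resistant untreated replicate 2), all by edgeR's quasi-likelihood test. Same-numbered libraries did not deviate together in expression (correlations -0.058 to 0.0272 over 6 pairs of groups). With 2 libraries a group this cannot show whether they were handled together, and the labels do not say what shares a number. The replicate block called 6 members in the parental response, losing IMPDH2, and changed no other call of a member. The fit to only the groups compared could not be run for the difference of the responses.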

Other observations

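Along chromosome 9 the fall in untreated resistant cells was described over 4 stretches of unequal length. Their limits belong to a step added after the data were seen, and differences between them were not tested. The median log2 fold change was -0.41 over 132 genes more than 20 Mb before GDA and -0.36 over 47 genes around GDA. It was -0.68 over 160 genes from 15 to 55 Mb after GDA and -0.29 over 161 genes beyond. With the drug these medians were -0.48, -0.47, -0.79 and -0.25. The chromosome median was between -0.447 and -0.406 in 4 alternatives added after the data were seen (a mean of at least 10 CPM, protein-coding genes alone, library totals and DESeq2 size factors). The drug responses had medians of 0.05 in parental and -0.02 in resistant cells on this chromosome.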
